A study of Apostichopus japonicus with 9 samples.

Results

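Gene models whose transcripts were more abundant at both reduced oxygen levels were examined in a sea cucumber, Apostichopus japonicus. The tissue, the respiratory tree, is a branched internal organ that exchanges gas with sea water pumped through the cloaca. Animals had been held for 3 days in sea water with about 8 mg/L dissolved oxygen (DO8, the control), or in water brought down with nitrogen to about 4 mg/L (DO4) or about 2 mg/L (DO2, the level the submitters define as hypoxia). Each group had 3 libraries, and each library came from equal amounts of RNA of 3 pooled individuals. Strain, sex and age are not in the labels used here, and all groups received the same handling apart from the oxygen level, as far as those labels say. The labels do not name tanks, so differences between tanks and differences between oxygen levels cannot be told apart.

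Membership was decided by the measured values. Expected counts, the authors' estimated read counts per gene model, were rounded and scaled to CPM (counts relative to the library's effective total) with TMM factors, which correct for libraries dominated by a few transcripts. A member had to be higher in all 6 low-oxygen libraries than in the highest DO8 library. Its mean CPM in DO2 and in DO4 each had to be at least 2 times the DO8 mean, its mean over the 9 libraries at least 5 CPM, and its DO8 mean below 1000 CPM. This gave 97 members among the 27214 models listed in the tables. The rule was applied to the 13933 models kept by a filter on low counts, so all 97 had passed it, and members made up 0.696% of the models kept. Without the filter, which also alters the scaling factors, 75 models met the rule, all of them among the 97. All 6 low-oxygen libraries lay above every DO8 library for 284 models, 2.04% of those kept, and 222 of these were within the limits on CPM. These shares describe the rule itself and nothing is read from them. The rule used how far DO2 and DO4 stood from DO8, so those differences are given below as descriptions, with no test. Both differences use the same 3 DO8 libraries.

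In many animals a fall in oxygen stabilises the transcription factor HIF (hypoxia-inducible factor), which raises transcripts for glycolysis, oxygen transport and growth of vessels, while energy-costly processes are turned down. No member could be tied to that pathway here. The tables name each model by a scaffold and a number, and 0 of the identifiers matched the supplied RefSeq gene table of this species, so models have no gene name or known role below. For the same reason no sequence is shown, and the labelled tissue could not be checked against its marker genes. In bulk tissue, more cells of a type and more RNA per cell cannot be told apart.

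The libraries held 1536327 (DO4 library 1) to 4348873 (DO2 library 3) expected counts. The top 10 models held 52.7% of all counts in DO2 library 3 and 12.9% to 19.1% in the others. The TMM factor of that library was 0.458, against 0.771 (DO4 library 1) to 1.27. The scaling therefore raises its CPM values relative to the other libraries. Without scaling factors 22 models met the rule, 21 of them among the 97 members, and with the authors' FPKM (fragments relative to length and library total, not corrected in this way) 23 models met it, 21 of them members. The median log2 difference of all models between DO2 and DO8 was -0.43 without factors and -0.01 with TMM. With DO2 library 3 left out, 158 models met the rule, 78 of them members. A count of 0 allowed up to 0.701 CPM (DO4 library 3) to 2.55 CPM (DO4 library 1), taken as 3 counts, and such floors cover counting error only.

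In DO8, 64 members (66%) had a mean under 10 CPM, 25 had 10 to 100 CPM and 8 had more than 100 CPM, and 44.5% of all models kept had a DO8 mean under 10 CPM. The rule asks for a low DO8 level relative to the other groups, so nothing is read from this difference. The median member was 2.87 times its DO8 mean in DO2 and 3.13 times in DO4, and the corresponding medians over all models kept were 1.03 and 1.03. The lower of both ratios was at least 3 for 32 members, at least 5 for 12 and at least 10 for 4, and lay between 2 and 3 for 65. The scarce members held the large ratios: the lower ratio reached 97.1 among those under 10 CPM in DO8, 5.0 among those at 10 to 100 CPM, and ran only from 2.01 to 2.46 among those over 100 CPM. The DO8 mean that sets these classes is also the divisor of both ratios, so nothing is read from this order. In 11 members at least 1 DO8 library had no count, and in 5 of them 2 DO8 libraries had none.

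**Figure D1:**
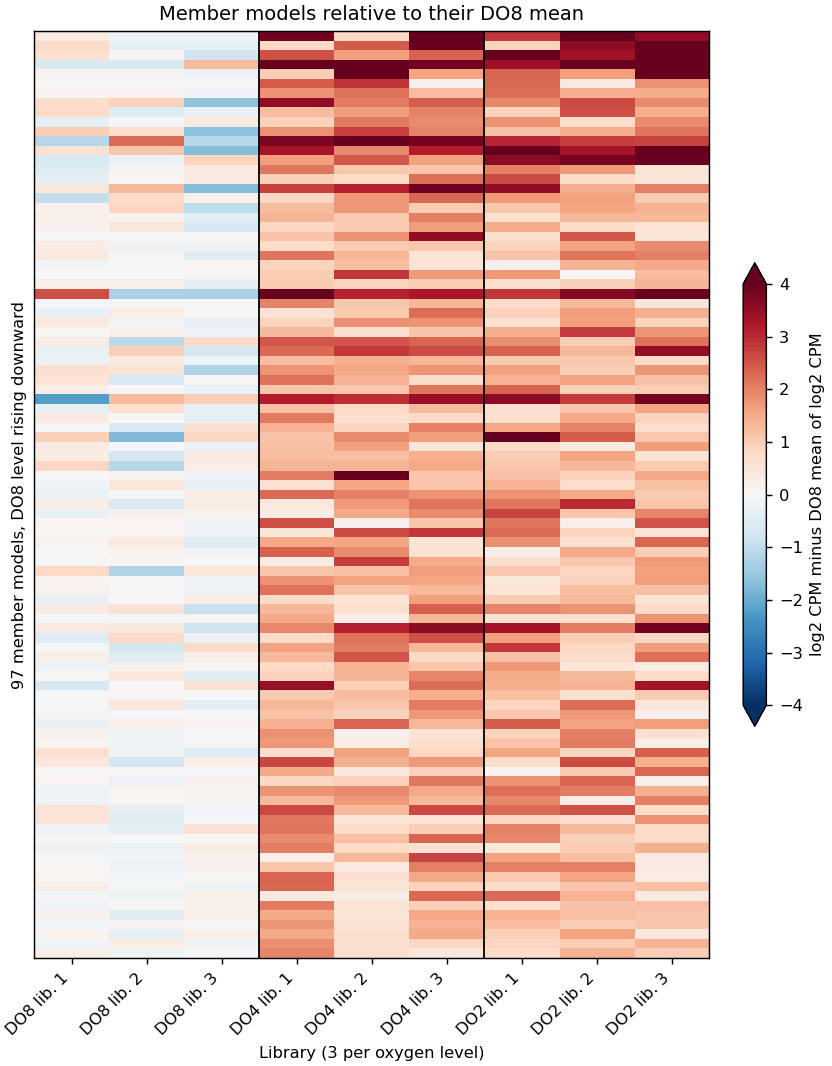
Heat map of log2 CPM (prior count 2) minus the model's DO8 mean for 97 member models (horizontal stripes, ordered by DO8 level) in the 9 libraries (columns). Red is above and blue below the DO8 mean, with the strongest colour at 4 log2 units and beyond; all 6 low-oxygen columns lie above DO8, which the rule requires, while strength and leading library differ from stripe to stripe.

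Library by library, members lay above their controls, which the rule requires, so the values in this paragraph only describe the list. The median member stood 1.35 (DO2 library 3) to 1.59 (DO4 library 3) log2 units above its DO8 mean in the low-oxygen libraries, while the median of all models stayed between -0.10 and 0.03. Between 65 (DO2 library 3) and 78 (DO4 library 1) of the 97 members were at least 2 times their DO8 mean in any given low-oxygen library, and 1 to 4 were so in a DO8 library. Summed over members, the level was 4101 to 4435 CPM in the DO8 libraries. It was 9565, 10852 and 9410 CPM in the DO2 libraries and 14844, 7606 and 10199 CPM in the DO4 libraries. Much of that sum came from 3 abundant members: without them the DO8 libraries summed to 1666 to 1795 CPM and the low-oxygen libraries to 3605 to 5970 CPM.

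The 10 members with the largest values of the lower ratio were all at low levels in the control. The first was evm.model.scaffold57.7, a model of 1014 bases. It had 4.7, 24.6 and 8.09 CPM in the DO2 libraries, 10.2, 0.64 and 15.4 in DO4, and 0.27, 0 and 0 in DO8. Only 1 read was counted over the whole DO8 group, against 93 in DO2 and 80 in DO4, so its ratio is wide open. The pooled level was 124 times that of DO8 in DO2 (exact 95% counting interval 21.7 to 4952) and 95.4 times in DO4 (16.6 to 3813). Here and below, such an interval covers counting error only and leaves out the spread between pools. It is no test of a difference that the rule selected. DO4 library 2 stood far below the other low-oxygen libraries and just above the highest DO8 library. It held 2 counts, under its floor of 0.953 CPM, against 1 count in DO8 library 1. Its place above the controls is therefore uncertain. The ratio of means was 138 in DO2 and 97.1 in DO4. It was 71.5 in DO2 without DO2 library 2, 59.8 in DO4 without DO4 library 3. Leaving out DO8 library 2 or DO8 library 3 gave 91.7 in DO2 and 64.3 or 64.2 in DO4. Without DO8 library 1 no control read was left. On counts thinned to the smallest library the ratios were 64.5 and 44.1.

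A similar sparse pattern held for evm.model.scaffold1479.5 (1083 bases). This model had 0.94, 9.91 and 14.2 CPM in DO2, 0.85, 4.13 and 19.2 in DO4, and 0.81, 0 and 0 in DO8. DO2 library 1 and DO4 library 1 were thus almost level with DO8 library 1. These 3 libraries held 3, 1 and 3 counts, and DO4 library 1 was under its floor of 2.55 CPM. The model met the rule in 10 of the 17 other settings described below. With 3 counts in DO8, 56 in DO2 and 96 in DO4, the pooled ratio was 24.9 in DO2 (exact 95% counting interval 8.09 to 124) and 38.1 in DO4 (12.7 to 188). The ratio of means in DO4, 29.7, was 9.2 without DO4 library 3, 19.7 without DO8 library 2 and 19.6 without DO8 library 3. In DO2 the ratio of means was 30.8, and it was 20.01, 20.5 and 20.4 without DO2 library 3, DO8 library 2 and DO8 library 3.

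The widest gap of any member between its lowest low-oxygen library and its highest DO8 library, 2.18 log2 units, belonged to evm.model.scaffold163.22 (699 bases). It was at 10.3, 23.4 and 17.2 CPM in DO2, 57.9, 17.5 and 14.5 in DO4, and 0, 0 and 1.75 in DO8, where 5 reads were counted in all. No low-oxygen library came near the controls, and DO4 library 1 was the highest. Its mean was 29.1 times the DO8 mean in DO2 and 51.4 times in DO4. These ratios were 19.3 and 34 without DO8 library 1 and likewise without DO8 library 2, and that of DO4 was 26.1 without DO4 library 1. Next in gap was evm.model.scaffold743.17 (612 bases), with 38, 21.8 and 45 CPM in DO2, 28.1, 24.1 and 35 in DO4, and 0, 7.03 and 5.59 in DO8. Its low-oxygen libraries were even, averaging 34.9 ± 11.9 CPM (SD, n = 3) in DO2 and 29.1 ± 5.51 CPM in DO4. The ratios to DO8 were 8.3 and 6.91, and 5.52 and 4.58 without DO8 library 1, the library with no count.

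For evm.model.scaffold131.2 (1068 bases) the DO2 libraries, at 35.1, 21.4 and 69.3 CPM, all lay above the DO4 libraries, at 21.3, 7.63 and 18.7. DO8 had 2.71, 4.06 and 0 CPM. The DO2 ratio of 18.6 was 12.4 without DO8 library 3, 30.9 without DO8 library 2, 12 on the authors' FPKM and 11.8 without scaling factors. In DO4 it was 7.04, with 11.7 without DO8 library 2 and 4.66 without DO8 library 3. The order from DO8 through DO4 to DO2 was thus complete among these 9 libraries, though the lowest DO2 library exceeded the highest DO4 library by little.

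Model evm.model.scaffold838.17 (1797 bases) had 18.8, 8.72 and 43.5 CPM in DO2, 17.9, 26.4 and 22.9 in DO4, and 2.43, 6.76 and 1.75 in DO8. DO4 was even, and DO2 was spread widely. Its DO2 ratio was 6.49, but 3.76 without DO2 library 3, 3.88 without scaling factors, 3.92 on FPKM and 11.3 without DO8 library 2. The DO4 ratio was 6.14, and 10.6 without DO8 library 2. A shorter member, evm.model.scaffold1381.5 (387 bases), had 11, 20.2 and 24.8 CPM in DO2, 26.4, 13.3 and 15.2 in DO4, and 9.2, 0 and 0 in DO8. Here a single control library, DO8 library 1, came close to the lowest DO2 library and held all 34 control reads. The ratios were 6.09 in DO2 and 5.97 in DO4, and 4.04 and 3.96 without DO8 library 2, 4.04 and 3.94 without DO8 library 3, and 11.6 for both on thinned counts.

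**Figure D2:**
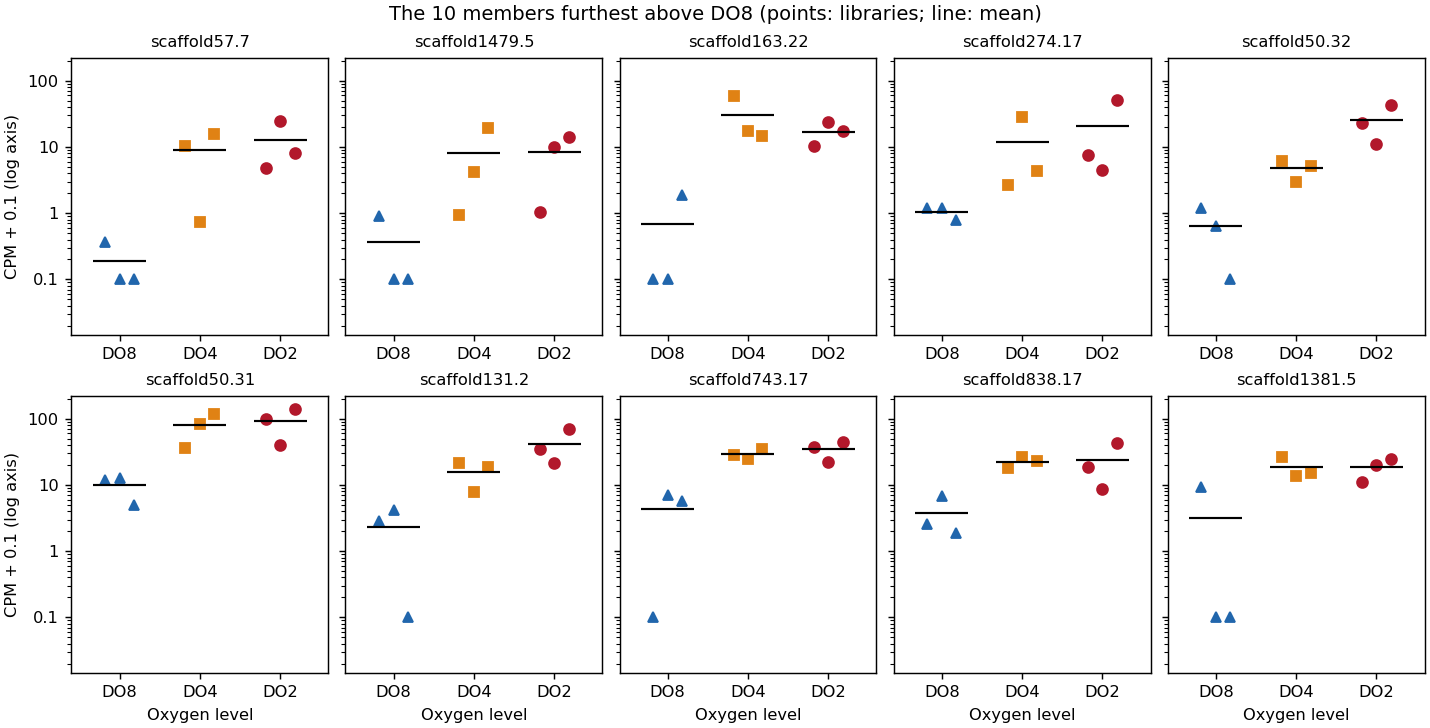
CPM plus 0.1 (log axis) of the 10 members with the largest lower ratio to DO8, in the 3 libraries of each oxygen level; points are libraries and lines are means. Points at 0.1 had no count; DO4 library 2 of scaffold57.7 and library 1 of both low-oxygen groups of scaffold1479.5 sit close to the highest DO8 point.

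At the other end of the scale were the 6 members with the highest CPM in low oxygen. The most abundant was evm.model.scaffold134.17, a model of 414 bases. It had 1701, 2595 and 1940 CPM in DO2, 3844, 1630 and 1349 in DO4, and 1175, 869 and 951 in DO8. The groups were separate but close, with the lowest DO4 library 0.20 log2 units above the highest DO8 library. Its DO4 ratio of 2.28 was 1.44 without DO4 library 1, and its DO2 ratio was 2.08. Per length, its mean level was 4602 FPKM in DO2, 5626 in DO4 and 2856 in DO8, the highest FPKM of any member in each group.

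DO4 library 1 was also the highest library for evm.model.scaffold873.15 (999 bases), which had 1614, 1765 and 2248 CPM in DO2, 3216, 1341 and 1590 in DO4, and 805, 1075 and 797 in DO8. The same was true of evm.model.scaffold452.8 (462 bases), at 874, 730 and 801 CPM in DO2, 1257, 553 and 971 in DO4, and 346, 403 and 369 in DO8. For evm.model.scaffold452.8 the DO2 libraries were tight, at 802 ± 71.9 CPM against 372 ± 28.6 in DO8 (SD, n = 3), a ratio of 2.15. In all 3 of these members DO4 library 2 or 3 was the lowest low-oxygen library.

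Model evm.model.scaffold118.6 (564 bases) had 1220, 1913 and 864 CPM in DO2, 1814, 1030 and 1791 in DO4, and 692, 492 and 743 in DO8. Model evm.model.scaffold454.10 (360 bases) had 419, 367 and 343 CPM in DO2, 460, 229 and 461 in DO4, and 178, 116 and 193 in DO8. Both had ratios to DO8 of 2.08 to 2.41, and both were high in DO4 libraries 1 and 3. The closest pair of the 6 was evm.model.scaffold454.10 and evm.model.scaffold452.8. Over the 6 low-oxygen libraries, Pearson's r of log2 CPM between pairs of these 6 abundant members ran from -0.47 to 0.91 with a median of 0.48. The median over all 4656 pairs of members was 0.01. These r values come from 6 libraries that every pair shares, and they are descriptions.

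Scaffolds carried 1 member each with few exceptions. The 97 members lay on 89 scaffolds, and 7 scaffolds held 15 members. Models kept by the filter and numbered directly before or after a member were counted for each member, so a model between members counts for both. Of these 110 neighbours, 6 were members themselves (5.45%), and 10 (9.09%) had all 6 low-oxygen libraries above every DO8 library. Those 10 include the 6 members, for which the rule requires it. Over neighbours of all models kept, the corresponding shares were 0.876% and 2.37%. The 6 form 3 adjacent pairs, on scaffold50, scaffold296 and scaffold1207. Adjacent models can share reads or be pieces of 1 gene, which the tables do not resolve.

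The pair on scaffold50 had the largest ratios among the adjacent pairs. Model evm.model.scaffold50.31 (2646 bases) had 97.8, 40 and 142 CPM in DO2, 36.6, 84.2 and 118 in DO4, and 11.9, 12.7 and 4.89 in DO8. Every low-oxygen library was well above the controls, by at least 1.48 log2 units, and the ratios of 9.49 and 8.08 moved by less than 1.5 times under each alternative tried. Its neighbour evm.model.scaffold50.32 (1908 bases) was scarcer and differed in pattern, with 23.2, 11.1 and 42.5 CPM in DO2, 5.96, 2.86 and 5.14 in DO4, and 1.08, 0.54 and 0 in DO8. All DO2 libraries exceeded all DO4 libraries for evm.model.scaffold50.32, whereas they overlapped for evm.model.scaffold50.31. The DO2 ratio of evm.model.scaffold50.32 was 47.3 on 6 control reads. It was 94.5 without DO8 library 1, 31.4 without DO8 library 3, 31.2 without scaling factors, 31.4 on FPKM, 29.9 on thinned counts and 31.5 with DO2 library 3 and DO4 library 1 left out. The DO4 ratio was 8.6, and 17.1 without DO8 library 1, 5.69 without DO8 library 3 and 5.7 on thinned counts. All 9 expected counts of both models were whole numbers, to the 2 decimals in which the authors gave them. The models on either side were far more abundant and were no members: evm.model.scaffold50.30 had DO2 and DO4 ratios of 0.951 and 1.67, and evm.model.scaffold50.33 had 1.28 and 1.92.

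On scaffold296 the members were evm.model.scaffold296.15 (348 bases), evm.model.scaffold296.29 (312 bases) and evm.model.scaffold296.30 (1854 bases). The last had 634, 345 and 165 CPM in DO2, 172, 159 and 636 in DO4, and 122, 115 and 156 in DO8. It was high in DO2 library 1 and DO4 library 3, while 3 low-oxygen libraries were barely above DO8 library 3. Its DO4 ratio of 2.46 was 1.26 without DO4 library 3. Model evm.model.scaffold296.29 had 68.4, 101 and 22.8 CPM in DO2, 34.9, 37.5 and 86 in DO4, and 20.6, 16.2 and 21.7 in DO8. Model evm.model.scaffold296.15 had 235, 235 and 73.9 CPM in DO2, 124, 75.3 and 232 in DO4, and 58.7, 49.2 and 64.3 in DO8. All 3 were high in DO2 libraries 1 and 2 and DO4 library 3 and near the controls in DO2 library 3. Over the 6 low-oxygen libraries r between them was 0.82 to 0.92, a description from shared libraries. The models numbered 28 and 31 on this scaffold were no members, with ratios of 1.48 and 1.68, and of 1.08 and 0.956, in DO2 and DO4.

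The pair on scaffold1207 was the most even across libraries. Model evm.model.scaffold1207.5 (555 bases) had 94.1, 82.4 and 53.6 CPM in DO2, 68.9, 74 and 56.8 in DO4, and 17, 20.8 and 21 in DO8. Model evm.model.scaffold1207.6 (2871 bases) had 21.3, 17.4 and 12.1 CPM in DO2, 29.8, 24.8 and 21.3 in DO4, and 4.6, 5.68 and 6.99 in DO8. Neither had a low-oxygen library near its controls. The ratios were 3.91 in DO2 and 3.39 in DO4 for the first and 2.95 and 4.39 for the second, and no alternative moved any of them by 1.5 times. Of the 9 expected counts of each, 0 were whole for the first and 1 for the second, taken to the 2 decimals deposited; the closest of the first missed a whole number by 0.01. Reads may have been divided between models, so their separate levels are uncertain. The models numbered 4 and 8 had ratios of 0.987 and 0.478, and of 1.09 and 1.34, in DO2 and DO4.

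A near miss filled the gap between evm.model.scaffold1383.14 (1008 bases) and evm.model.scaffold1383.16 (3480 bases). The first had 25.7, 5.55 and 8.6 CPM in DO2, 14.5, 19.1 and 33.2 in DO4, and 2.43, 4.87 and 0 in DO8. The second had 11.6, 16.6 and 28.8 CPM in DO2, 31.5, 27 and 26.6 in DO4, and 9.2, 8.65 and 7.69 in DO8. Between them, evm.model.scaffold1383.15 had ratios of 3.11 and 2.87 and was no member, because DO2 library 1, at 12.5 CPM, lay below DO8 library 1, at 14.6. Its other low-oxygen libraries, at 53.9, 51.6, 43.4, 27.3 and 38.3 CPM, were above all controls. The low-oxygen libraries thus ordered differently for these 3 models, and r between the pair of members over the 6 libraries was -0.03.

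**Figure D3:**
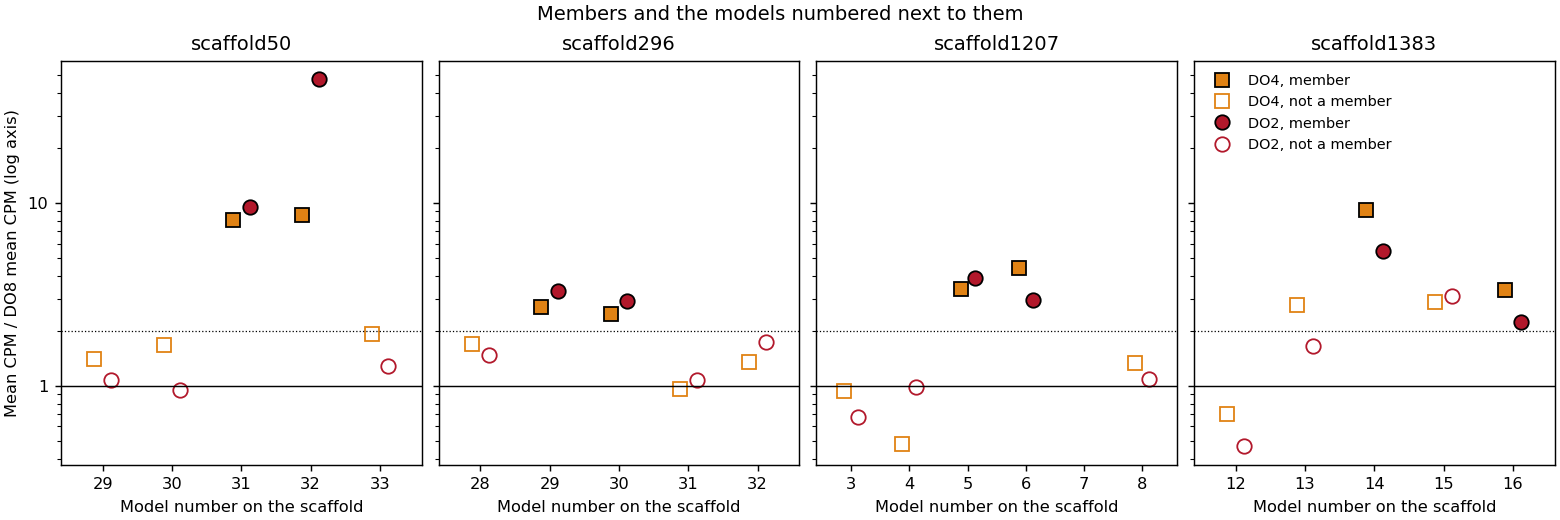
Ratio of the DO2 (circles) and DO4 (squares) mean CPM to the DO8 mean (log axis) for models numbered next to each other on 4 scaffolds; filled symbols are members, open symbols other models kept by the filter, the solid line is a ratio of 1 and the dotted line 2. Members on scaffold50, scaffold296 and scaffold1207 stand above neighbours whose ratios lie between 0.478 and 1.92, and scaffold1383 has a non-member above 2 between its members.

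A different neighbourhood surrounded evm.model.scaffold274.17 (417 bases), another of the 10 members with large ratios. It had 7.53, 4.36 and 50.6 CPM in DO2, 2.55, 28.3 and 4.2 in DO4, and 1.08, 1.08 and 0.7 in DO8. A single library in each low-oxygen group was far above the rest, and the other 4 were lower but still above every control. The lowest of them, DO4 library 1, had an expected count of 3.03, at the floor of 2.55 CPM given above for that library. Its place above the controls is therefore uncertain. The DO2 ratio of 21.8 was 6.21 without DO2 library 3, 11 without scaling factors and 11.7 on FPKM, and the DO4 ratio of 12.2 was 3.54 without DO4 library 2. The preceding model, evm.model.scaffold274.16, was highest in the same 2 libraries, at 3180 CPM in DO2 library 3 and 1444 in DO4 library 2, but stood at 602, 788 and 473 CPM in DO8. None of the 9 expected counts of evm.model.scaffold274.17 was a whole number, so its reads may have been divided with other models; the part of this in its level was not tested. On the same scaffold evm.model.scaffold274.22 (3393 bases) had 12.2, 10.3 and 15.7 CPM in DO2, 23, 90.6 and 11.9 in DO4, and 5.14, 5.68 and 4.55 in DO8. DO4 library 2 again stood out, and the DO4 ratio of 8.17 was 3.4 without it.

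Features that the rule did not use were set beside those of all models kept. The members' median length was 930 bases (range 225 to 5880) against 1032, and 22 of 97 (22.7%) were shorter than 500 bases against 12% of all. Of the 8 members above 100 CPM in DO8, 4 were shorter than 500 bases. Lengths of the 1135 models kept above 100 CPM in DO8 were not summarised, so nothing is read from this. Lengths were divisible by 3 for 92 members (94.8%), against 93.7% of all models kept, so they are mostly coding lengths. The identifiers of 95 members begin with evm and those of 2 with add.evm. The mRNA type, 263 of the 13933 models kept, held 0 members. Together the add.evm and mRNA types made up 2.06% of members and 4.62% of all models kept. All 9 expected counts were whole for 42 members (43.3%) and for 43.1% of all models kept. None was whole for 32 of the 97 members and for 4369 of the 13933 models kept. None of these differences was tested, since models are not replicates.

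Within groups, members varied about as all models kept did in DO2 and less in DO4 and DO8. The median SD of log2 CPM over 3 libraries was 0.62 in DO2, 0.59 in DO4 and 0.37 in DO8, against 0.63, 0.72 and 0.46 over all models kept. A rule that keeps groups apart favours small spreads, so these lower values are no finding. Among the 6 low-oxygen libraries, DO4 library 1 held the highest level for 26 members (26.8%, against 18.9% of all models kept) and DO4 library 3 for 22 (22.7% against 19.6%). DO2 library 3 held the lowest level for 25 members (25.8% against 16.5%). DO4 library 1 is the shallowest library and DO2 library 3 the one with the most concentrated counts; the part of either property in these counts was not tested. The 26 members that peaked in DO4 library 1 had a median ratio of 2.46 in DO2 and 3.25 in DO4, and the 17 that peaked in DO2 library 3 had 3.3 and 2.52.

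**Figure D4:**
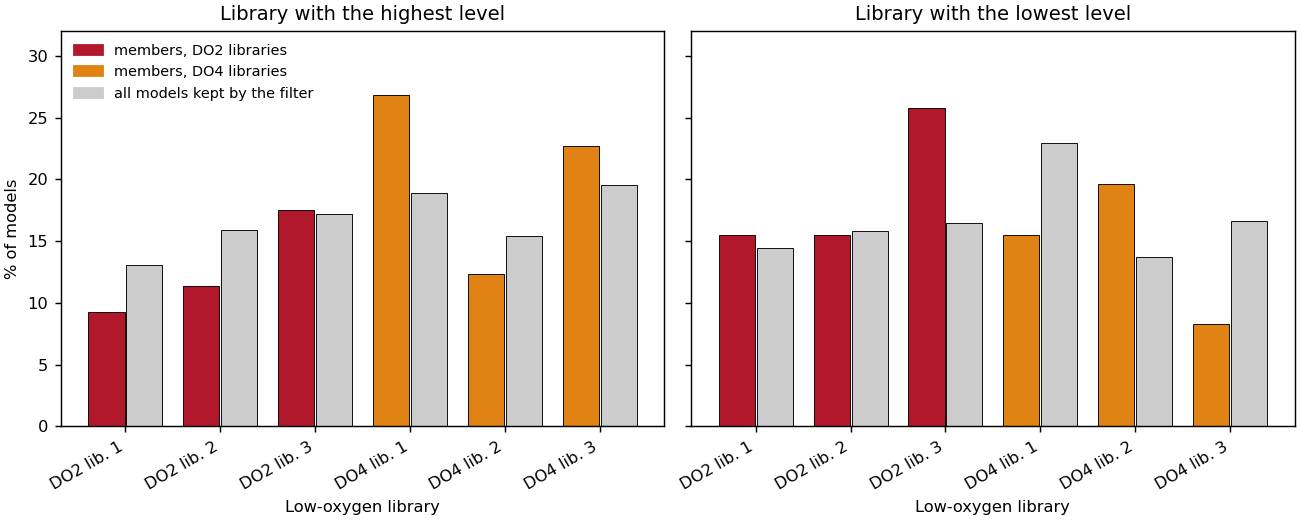
Share of models (%) whose highest (left) or lowest (right) level among the 6 low-oxygen libraries fell in each library; coloured bars are the 97 members and grey bars all 13933 models kept by the filter. DO4 library 1 is the most frequent peak of members (26.8%) and DO2 library 3 their most frequent low point (25.8%).

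Whether members differed between 2 and 4 mg/L is the comparison that the rule left free, apart from requiring both means to be high. It was tested with edgeR's quasi-likelihood test across all 13933 models. The DO2 mean was higher for 39 members (40.2%, against 48.4% of all models) and the DO4 mean for 58. The median log2 difference was -0.13, against -0.03 over all models. After Benjamini-Hochberg adjustment 0 models were called, 0% of those tested and 0 of the 97 members. The lowest adjusted p of a member was 0.971. At an unadjusted p under 0.05, 3 members were higher in DO2 (3.09%, against 2.94% of all models) and 1 was lower (1.03%, against 1.97%). All DO2 libraries lay above all DO4 libraries for 4 members (4.12%, against 4.26% of all models) and below them for another 4 (4.12% against 3.48%). The shares by unadjusted p and by separation of libraries are near the background. DESeq2 called 27 models and 0 members in this comparison, with 3 members at an unadjusted p under 0.05.

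The largest lead of DO2 over DO4 by p was that of evm.model.scaffold2424.5, the longest member at 5880 bases. It had 32.3, 36.9 and 57.2 CPM in DO2, 7.66, 14.3 and 7.71 in DO4, and 1.08, 1.62 and 4.2 in DO8. The groups did not overlap, and levels stepped from DO8 to DO4 to DO2. Its log2 difference between DO2 and DO4 was 2.07 ± 0.55 (SE), with an edgeR unadjusted p of 0.00372 and an adjusted p of 0.971 (0.123 to 1.0 over 20 alternatives, the lowest by DESeq2). The ratios to DO8, 18.3 in DO2 and 4.3 in DO4, were 31.1 and 7.26 without DO8 library 3. For evm.model.scaffold50.32, whose values are given above, the difference was 2.47 ± 0.73, with an unadjusted p of 0.00743 and an edgeR adjusted p of 0.971 (0.166 to 1.0). Model evm.model.scaffold546.2 (1155 bases) had 10.7, 27.7 and 13.1 CPM in DO2, 9.36, 5.72 and 8.41 in DO4, and 3.52, 4.06 and 2.8 in DO8. Its difference was 1.14 ± 0.49, with an unadjusted p of 0.0442 and an edgeR adjusted p of 0.971 (0.643 to 1.0).

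In the opposite direction the smallest p was that of evm.model.scaffold274.22, at -1.72 ± 0.68 with an unadjusted p of 0.0296 and an edgeR adjusted p of 0.971 (0.625 to 1.0). It rested on DO4 library 2, and the DO2 and DO4 libraries overlapped. Model evm.model.scaffold504.12 (1977 bases) had 11.6, 3.17 and 8.09 CPM in DO2, 6.81, 26.4 and 11.4 in DO4, and 2.98, 2.97 and 3.15 in DO8. The controls were nearly identical, DO2 library 2 was almost level with them, and the DO4 ratio of 4.91 was 3.01 without DO4 library 2. Model evm.model.scaffold1550.6 (930 bases) had 30.1, 19 and 16.7 CPM in DO2, 16.2, 43.5 and 58.6 in DO4, and 6.22, 15.9 and 7.69 in DO8. DO8 library 2 came close to the lowest low-oxygen libraries. The log2 differences of these models were -0.97 ± 0.62 and -0.85 ± 0.55, with an edgeR adjusted p of 0.971 for each (0.661 to 1.0 and 0.643 to 1.0).

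**Figure D5:**
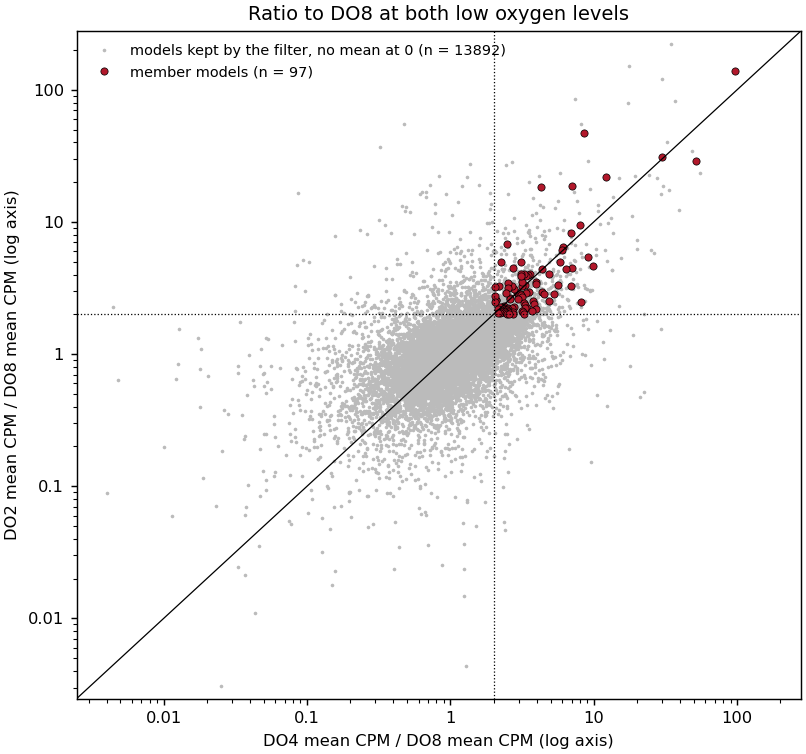
Mean CPM in DO2 (y) and in DO4 (x) divided by the DO8 mean (log axes) for 13892 models with no group mean at 0 (grey) and the 97 members (red); dotted lines mark the ratio of 2 that the rule requires and the solid line equal ratios. Members lie on both sides of the line of equal ratios. The DO2 mean was higher for 39 members (40.2%, against 48.4% of all models kept) and the DO4 mean for 58. Grey points beyond both dotted lines failed another criterion.

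The members that depended least on the processing were picked out by repeating the rule. Of 17 other settings (other scalings, filters and units, thinned counts, and libraries left out), 14 members met the rule in all, and the median member met it in 13. Under the 5 other scalings, including FPKM and no factors, 21 members met it throughout. The 14 include 8 of the 10 members with the largest ratios and evm.model.scaffold2424.5. Every setting reuses the rule and these libraries, and large ratios lie furthest from its threshold, so nothing is read from this overlap. Among the 8 is evm.model.scaffold274.17, whose DO4 library 1 has an uncertain place above the controls. The 14 also include evm.model.scaffold519.18 (2256 bases), at 85.9, 48.3 and 50.6 CPM in DO2, 42.5, 80.4 and 39.7 in DO4, and 12.4, 17.6 and 16.4 in DO8. Its ratios of 3.98 and 3.5 came from libraries that all stood well above the controls. Model evm.model.scaffold2801.1 (816 bases) had a gap of similar width, with 10.7, 5.94 and 6.07 CPM in DO2, 7.66, 10.2 and 4.91 in DO4, and 1.89, 1.89 and 1.4 in DO8. It met the rule under the 5 scalings but not in every setting.

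The edge of the list was a matter of small differences. Just inside the ratio of 2 were evm.model.scaffold110.6, evm.model.scaffold92.10 and evm.model.scaffold12.38, with lower ratios of 2.01, 2.01 and 2.02, each from DO2. Just outside were evm.model.scaffold948.7, evm.model.scaffold352.3 and evm.model.scaffold69.28, with 1.98, 1.97 and 1.97. Model evm.model.scaffold69.28 (396 bases), for example, had 314, 415 and 251 CPM in DO2, 452, 255 and 370 in DO4, and 172, 178 and 149 in DO8. Like the members, the models just outside were above all controls in each low-oxygen library. With a minimum ratio of 1.5 the list would hold 185 models, and with 3 it would hold 32.

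The mirror rule, for models lower in all 6 low-oxygen libraries and at most 0.5 times the DO8 mean in both groups, gave 164 models. Their median SD of log2 CPM was 0.73 in DO2, 0.74 in DO4 and 0.43 in DO8, and their median length was 1096.5 bases. The balance between the lists differed with the scaling. Upper-quartile factors gave 119 higher and 140 lower, and library totals alone gave 22 higher and 304 lower. The difference between the lists was not tested.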

How the data were processed

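Per the file headers, each deposited table gives a gene model's length, expected count and FPKM. Expected counts are estimates by the authors with no normalization, and FPKM values are also theirs. Per the submitters' processing notes CASAVA 1.5 was used; aligner, counting program and build were not given in the sources used here. Groups and replicate numbers come from the sample titles. Whether pools came from separate tanks is not stated, and p-values reflect only how pools vary.

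Models a table did not list were taken as 0, and expected counts were rounded. filterByExpr (default, minimum count 10), TMM factors and the quasi-likelihood test (robust glmQLFit, 1 coefficient per group, all 9 libraries) of edgeR 4.0.16 in R 4.3.3 were used, with Benjamini-Hochberg adjustment over all models tested at a threshold of 0.05. Standard errors derive from the F statistic. The highest Pearson's r between libraries was 0.835, so none was taken as a repeat. The filter kept 98.9% of counts. Alternatives used DESeq2 1.42.0 and limma 3.58.1 (robust moderation). Named members are the 10 with the largest lower ratio, the 6 most abundant, the 3 smallest p in each direction between DO2 and DO4, adjacent members, the 6 widest gaps (log2 CPM, prior count 2), and those beside the threshold; evm.model.scaffold296.15, the scaffold1383 models and neighbours were added after their values were seen. Members and rules were chosen with earlier results of these data known.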

Additional observations from a re-analysis of the deposited data

How the results depend on the processing

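The list of 97 members and the 164 models lower at both levels changed with the scaling, the minimum ratio and the libraries used. Members numbered 23 on the authors' FPKM and 22 on library totals alone, against 301 and 304 lower models. A minimum ratio of 1.5 gave 185 and 283, and of 3 gave 32 and 71. Dropping both DO2 library 3 and DO4 library 1 gave 271 and 321 (this setting and library totals alone were chosen after seeing the data). Leaving out each library gave 96 (without DO2 library 2) to 224 (without DO8 library 1) members and 165 to 281 lower models. With fewer libraries, fewer values have to lie in order, while the ratios of means and the scaling can move either way. The lists also changed in content: 72 of the 97 remained without DO2 library 2 and 86 without DO8 library 1. On counts thinned to the smallest library 105 models met the rule, 62 of them among the 97. The members' count was also over 1.5 times as large without DO2 library 3 (158), DO8 library 2 (168) and DO8 library 3 (195), and that of lower models without DO8 library 1 (281) and DO8 library 3 (264).

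Between DO2 and DO4 the 0 calls became 27 with DESeq2, 1 with limma on log2(FPKM + 1), 3 on log2(FPKM + 0.1), 1 without its filter, and 0 to 1 when each library was left out (1 without DO4 library 3 and 1 without DO8 library 3); 0 of these calls were members. The 4 members at an unadjusted p under 0.05 became 2 with limma on log2(FPKM + 1), 2 on log2(FPKM + 0.1) and 2 with the replicate block, which gave 0 calls; they became 5 with limma without its filter, 5 with voom quality weights, and 3 to 6 when each library was left out (6 without DO4 library 1). The labels do not say whether the replicate numbers pair the libraries. Same-numbered libraries had correlations of their deviations from -0.17 to 0.07, and 1 of 9 libraries correlated best with its own number. With 3 libraries per group these correlations cannot settle whether the numbers mark pairs. The causes of these changes were not tested. Of 872 ratios of named members to DO8 under alternatives, 26 moved by more than the SD of the low-oxygen group divided by the DO8 mean. That measure leaves out the spread of DO8 and is wide where libraries differ. The DO2 ratio of evm.model.scaffold50.32, for example, moved by more than 1.5 times in 6 of 17 alternatives. Of the ratios, 0 fell below 1, which the rule makes nearly certain, so nothing is read from it. Of 120 differences between DO2 and DO4, 0 changed direction or passed the threshold. The spread between pools (biological coefficient of variation 61.1%) limits what this design can detect.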
